A study of Mus musculus with 5 samples.

Results

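The cells described here are 495 hepatic stellate cells (HSC) with high levels of interferon-stimulated transcripts, found among 9912 stellate cells sorted as VitA+Col1a1+ from DEN+WAD mice. They were chosen by measured values of these same cells. Of 10481 cells in this library, 10213 held 5000 or more UMIs (unique molecular identifiers, each 1 captured transcript). In 10044 of these at least 1 UMI of Lrat, the retinol-esterifying enzyme of stellate cells, was found. Excluding cells with any UMI of Pecam1 (endothelial cells) or Ptprc (leukocytes) left 9912, or 94.6% of the library. Each was given a score, the summed UMIs of Ifit1, Ifit3, Ifit3b, Usp18, Oasl2 and Cmpk2 per 10000 UMIs of the cell, and the members are the top 5%. They were compared with the 4956 cells whose score was at or below the median, called comparison cells below. The whole series holds 24007 cells in 5 libraries.

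The mice were males carrying the Rosa26mTmG reporter and a Cre recombinase driven by the Col1a1 promoter, on a C57BL/6J background, so that GFP marks cells in which this collagen promoter had been active at some time. DEN+WAD mice received the carcinogen diethylnitrosamine (DEN, 10 mg/kg) at 2 weeks of age and, from 6 weeks, a liquid Western alcohol diet (WAD) with 3.5% ethanol by volume for 5 months. Control mice received saline and chow. Non-parenchymal cells were sorted for GFP and for the autofluorescence of stored vitamin A (VitA) into VitA+Col1a1+ and VitA-Col1a1+ cells of both regimens, and DEN+WAD liver also gave cells labelled VitA-Col1a1-. A group was always 1 library, so no value below has a replicate error, and no test between conditions was possible. Intervals are 95% intervals that cover counting error only.

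Interferons are secreted proteins that warn cells of infection. Type I interferons bind the receptor pair Ifnar1 and Ifnar2 and switch on genes that carry the interferon-stimulated response element (ISRE). Interferon-gamma binds Ifngr1 and Ifngr2 and acts mainly through a different element (GAS), and the target genes of both kinds overlap widely. Hepatic stellate cells, the vitamin A-storing pericytes of the liver sinusoid, carry both receptors and make collagen when activated.

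The score had no gap at which a separate class began. The lowest member stood at 16.3 per 10000 and the highest cell outside at 16.2, and 100 members lay within 10% above the cut while 151 other cells lay within 10% below it. The members' median was 21.2, with 25% of them under 18.3 and 25% above 25.8, and the comparison cells' median was 1.64. Only 72 members exceeded 30 and 10 exceeded 60, the 3 highest at 186, 158 and 118. The members are therefore the end of a range of levels and are not called a cell type. Ifit3, which with Ifit1 and Ifit3b encodes RNA-binding antiviral proteins, gave 49.7% of the members' score UMIs, Ifit1 17.4%, Ifit3b 14.5%, the 2'-5'-oligoadenylate synthetase-like gene Oasl2 8.37%, the ISG15-removing protease Usp18 6.08% and the mitochondrial nucleotide kinase Cmpk2 3.99%. All 6 genes were found in 205 members, and 494 held at least 3. Ifit3 and Ifit3b (chromosome 19, 34583531-34588731 and 34607970-34613401, GRCm38) are close copies, and reads can be split between them. These 6 genes define the members and carry no finding.

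**Figure D1:**
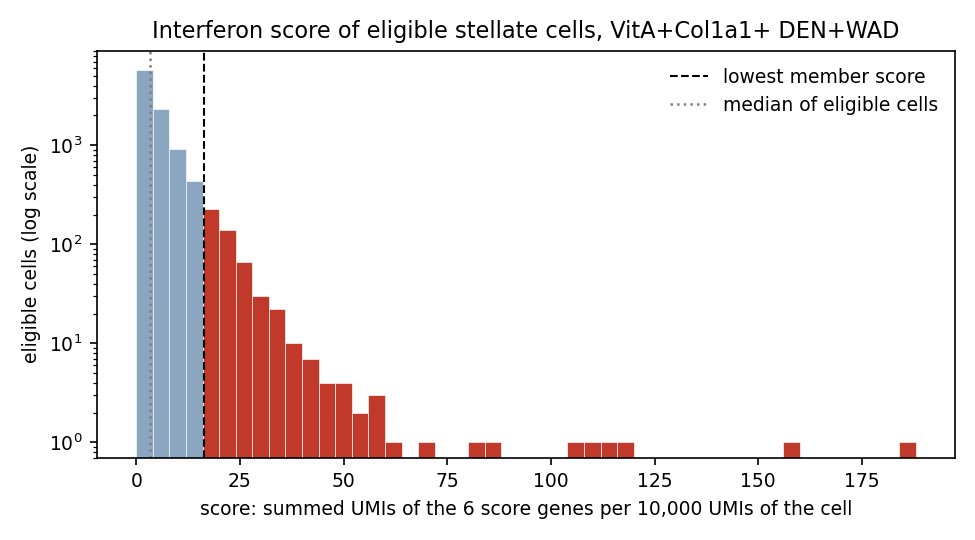
Number of eligible cells of VitA+Col1a1+ DEN+WAD (log axis) by score, in bins of 4 per 10000 UMIs, with the lowest member score of 16.3 dashed and the median of 3.36 dotted. The counts fall without a gap around the cut, and the red bars, bins from 16 upwards, hold the 495 members and 28 cells just under the cut.

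Members and comparison cells were alike in depth. The median was 13044 UMIs and 3579 genes in members and 13173 UMIs and 3606 genes in comparison cells, and mitochondrial transcripts made up 2.67% and 2.77%. Cells with over 2 times the median UMIs of eligible cells, where doublets collect, were 1.82% of members and 3.85% of comparison cells. No doublet caller was run. Between 1 and 21 barcodes of this library also occurred in each of the other libraries, and 1 of them belonged to a member. The members held 26 UMIs of 12 macrophage markers in all, with Clec4f and Adgre1 at 0, and 0 UMIs of 12 T and NK cell markers and of 6 B and plasma cell markers. Neutrophil markers gave 1 UMI and cholangiocyte markers 8. Endothelial markers stood at 135 CPM (UMI counts pooled over cells and scaled to the same total) in members and 138 CPM in comparison cells. The 7 plasmacytoid dendritic cell markers summed to 334 and 363 CPM, of which Tcf4 gave 330 and 361, and Siglech, which defines those cells, was at 0 in members. A pooled CPM does not separate more cells with a transcript from more transcript per cell, so values per cell are given for the main genes.

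Of 9330 genes at 5 CPM or more over all eligible cells, with the score genes left out, 143 (1.53%) were higher in members and 141 (1.51%) lower, where higher or lower means a ratio of pooled CPM of at least 1.5-fold. The median log2 ratio over all these genes was -0.04. Because these values come from the contrast that chose the members, they are given as a description.

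The antiviral effector list held 52 tested genes, of which 45 were higher in members and 0 lower, with a median log2 ratio of 1.27. Rsad2 (viperin, an enzyme that makes a chain-terminating nucleotide) lies on chromosome 12 at 26442746-26456452 on the minus strand and stood at 125 CPM in members (852 UMIs) and 11.5 CPM in comparison cells (818 UMIs), a ratio of 10.8 (9.84 to 11.95). The next largest ratios were those of the Schlafen gene Slfn2 (55.5 and 9.87 CPM, log2 ratio 2.49) and of Ifi44 (59.6 and 11.9 CPM, 2.33). Isg15 (chromosome 4, 156199424-156200818), the ubiquitin-like protein that effectors attach to other proteins, stood at 3390 CPM against 1250 CPM, a ratio of 2.71 (2.67 to 2.75). Rtp4, a negative regulator of the RNA sensor MDA5, stood at 461 and 145 CPM (log2 ratio 1.67), and the 2'-5'-oligoadenylate synthetase Oas1a at 19.3 and 6.37 CPM (a ratio of 3.03). Cd274, the checkpoint ligand PD-L1, stood at 23.8 and 6.22 CPM (log2 ratio 1.94).

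The 7 effectors within 1.5-fold were Ifi27 (204 and 249 CPM, log2 ratio -0.29), Ifitm2 (0.11), Ifitm1 (0.21), Lgals3bp (0.28), Uba7 (0.36), Ly6e (0.39) and Ifitm3 (5351 and 3896 CPM, 0.46). The Ifitm genes encode membrane proteins that block the entry of enveloped viruses. Ifitm3 was found in all 495 members and in 4955 of the 4956 comparison cells. Slfn8 and Slfn9, Phf11b and Phf11d, and Trim30a and Trim30d are close copies whose separate counts are uncertain. Mx2 and Oas1b of the list were not analysed here.

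Values per cell show how these differences were spread. The quartiles of Isg15 per 10000 UMIs were 14.5, 29.0 and 45.9 in members and 2.49, 7.41 and 18.4 in comparison cells, so the middle ranges overlapped. For Rtp4 they were 2.94, 4.36 and 6.11 in members and 0.595, 1.16 and 2.13 in comparison cells, and the members' lower quartile lay above the comparison cells' upper one. The median of Rsad2 was 0 in both groups, its upper quartile was 0.973 in members and 0 in comparison cells, and its highest value was 55.8 and 13.4. At least 1 Rsad2 UMI was found in 222 members (44.8%) and in 467 comparison cells (9.42%). The 10 member cells with most Rsad2 held 43.8% of the members' Rsad2 UMIs, against 8.45% for Isg15 and 5.64% for Rtp4.

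All 15 tested GTPases of the interferon-gamma type list were higher, with a median log2 ratio of 1.68. These guanylate-binding (Gbp) and immunity-related (Irg) GTPases assemble on the vacuoles of intracellular parasites and bacteria. Igtp (chromosome 11, 58199556-58207591, plus strand) stood at 154 CPM in members and 33.5 CPM in comparison cells, a ratio of 4.58 (4.26 to 4.93), Gbp6 at 18.9 and 4.48 CPM (4.21), and Ifi47 at 212 and 51.0 CPM (4.16). Gbp8 had the smallest ratio of the list, at 39.9 and 23.1 CPM (1.73, interval 1.52 to 1.97). The Gbp genes and Tgtp2 belong to families of near-identical copies, so their separate values are uncertain.

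Of 18 tested nucleic acid sensors and adaptors, 11 were higher and 0 lower (median log2 ratio 0.80). Dhx58 (LGP2, which modulates RNA sensing) stood at 40.6 and 9.66 CPM (log2 ratio 2.07), the RNA-activated kinase Eif2ak2 at 46.9 and 12.7 CPM (1.88), the Z-nucleic acid sensor Zbp1 at 107 and 29.2 CPM (1.87), Ddx58 (RIG-I) at 104 and 40.7 CPM (1.35) and Ifih1 (MDA5) at 182 and 79.2 CPM (a ratio of 2.29). The adaptors that carry these signals differed less: log2 ratios were -0.18 for Mavs, 0.04 for Tmem173 (STING), 0.19 for Ticam1 and 0.36 for Myd88, all within 1.5-fold.

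Among the JAK-STAT and IRF factors, some were higher and 0 lower. Irf7, the factor that amplifies interferon production, stood at 212 and 57.9 CPM (log2 ratio 1.87), the signal transducer Stat2 at 83.2 and 27.6 CPM (1.59) and the factor Irf9 at 79.7 and 38.4 CPM (1.05). Irf7 is among the markers proposed for these cells and was not in the score. Irf1, the factor most tied to interferon-gamma, had a log2 ratio of 0.56 (0.47 to 0.66), within 1.5-fold, and Jak1 (0.05), Jak2 (0.11) and Stat3 (0.08) had intervals that included 0. The suppressor Socs1 stood at 14.2 and 9.19 CPM (log2 ratio 0.63, interval 0.30 to 0.94), and Socs3 at 330 and 367 CPM (-0.15).

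Of the receptors, none of 5 tested chains passed 1.5-fold: log2 ratios were 0.04 for Ifnar1, 0.05 for Ifnar2, 0.06 for Ifngr1 and -0.04 for Ifngr2, each with an interval that included 0. Of 21 interferon genes, 45 UMIs were counted in the whole library, 43 of them of Ifnz, and 2 in the members. Ifnb1 and Ifng had 0 UMIs in all 10481 cells, and 0 UMIs in the members allows up to 0.439 CPM, the level that 3 UMIs would give. Elsewhere, Ifng had 211 UMIs in the library labelled VitA-Col1a1- and Ifnb1 had 4 in VitA-Col1a1+ DEN+WAD.

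For MHC class I presentation, 6 of 21 tested genes were higher and 0 lower (median log2 ratio 0.36). The members of the list that passed were the peptide transporter Tap1 (131 and 54.8 CPM, log2 ratio 1.26), the class I gene H2-T24 (13.3 and 5.85 CPM, 1.18), the transporter-associated Tapbpl (0.68), the immunoproteasome subunits Psmb8 (0.63) and Psmb10 (0.59) and the proteasome activator Psme2 (0.59). Psmb9, which sits next to Tap1 on chromosome 17, stood just inside the limit at 0.57. Against all other eligible cells, Tapbpl (0.43), Psmb8 (0.44), Psmb10 (0.42) and Psme2 (0.44) were within 1.5-fold, while Tap1 and H2-T24 still passed. The antigen-presenting chains hardly differed: B2m stood at 6412 and 6129 CPM (0.07), H2-D1 at 6750 and 6411 CPM (0.07) and H2-K1 at 5489 and 5116 CPM (0.10). H2-D1, H2-K1 and the H2-Q and H2-T genes are close copies, and their separate counts are uncertain. Of the class II list 2 genes were tested, Cd74 (12.1 and 7.24 CPM, log2 ratio 0.74) and H2-Ab1 (5.70 and 6.22 CPM, -0.13).

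Of 18 tested chemokines and cytokines, 5 were higher and 1 lower, with a median log2 ratio of 0.22. Cxcl10 (chromosome 5, 92346638-92348889), a ligand of CXCR3, a chemokine receptor of activated T cells, stood at 783 and 136 CPM, a ratio of 5.77 (5.58 to 5.97). Cxcl5 (22.7 and 7.99 CPM, a ratio of 2.84), a neutrophil attractant, Ccl2 (963 and 520 CPM, log2 ratio 0.89), a monocyte attractant, Cxcl9 (34.1 and 19.4 CPM, 0.81) and Ccl5 (11.1 and 6.91 CPM, 0.69) were also higher, and the eosinophil attractant Ccl11 was lower (23 and 789 UMIs, -1.72). Ccl11 came to 0.19 with cells holding any Mfap4, Mgp or Gas6 UMI or 3 or more Acta2 UMIs left out. Cxcl5 came to -0.64 without cells holding any macrophage, endothelial, T or NK marker UMI, and Cxcl9 to -0.13 against all other eligible cells. Cxcl12, which stellate cells make constantly, stood at 4019 and 4115 CPM (-0.03). Few cells carried these differences: 10 members held 46.3% of the Cxcl10 UMIs, 96.1% of those of Cxcl5 and 35.0% of those of Ccl2. None of 13 tested NF-kB response genes passed 1.5-fold in either direction (median 0.19), from Nfkbiz at -0.26 to the adhesion molecule Vcam1 at 0.51, and Nfkbia, the NF-kB inhibitor, was at 0.15.

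**Figure D2:**
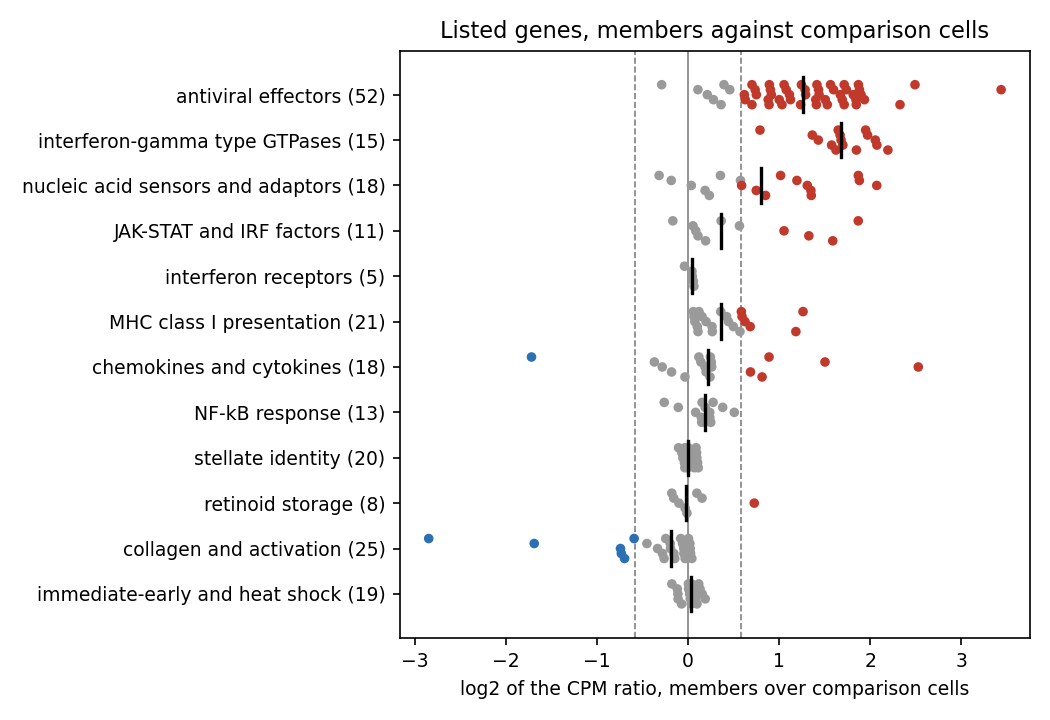
Log2 ratio of pooled CPM, members over comparison cells, for every tested gene of 12 lists (number of genes in brackets). Points are genes, black bars list medians and dashed lines the 1.5-fold limits, with genes past them in red (higher) or blue (lower). The effector and GTPase lists lie to the right of 0 with medians of 1.27 and 1.68, and the stellate identity list is centred at 0.00.

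RefSeq promoters (GRCm38.p6, 250 bases before to 50 after the start site) were matched by symbol for 109 of the 143 higher genes, 106 of the 141 lower genes and 7353 of all 9330 tested. The ISRE was searched as GAAA, any 2 bases and GAAA again, on either strand and with overlapping matches counted. It was in the promoters of 51 of the 109 higher genes (46.8%), 2 of the 106 lower genes (1.89%) and 283 of the 7353 tested (3.85%). Among all 27025 symbols of the promoter table the share was 3.99%. The GAS letters TTCNNNGAA were found in 20 of the 109 higher genes (18.3%) and in 8.08% of those tested. By list, the ISRE letters were present in 9 of the 10 GTPases with a promoter, 18 of 42 antiviral effectors, 5 of 17 MHC class I genes, 2 of 14 stellate identity genes and 1 of 17 collagen and activation genes. A match is a description of letters and does not show that a factor was bound.

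The windows below, 150 bases each and 5' to 3' on the gene's strand, show the ISRE letters in capitals for a score gene (Ifit1), for the held-out effector with the largest ratio (Rsad2), for Isg15, Cxcl10 and the GTPase Igtp, and for B2m, whose level hardly differed.
Ifit1, chr19:34640724-34640873, plus strand: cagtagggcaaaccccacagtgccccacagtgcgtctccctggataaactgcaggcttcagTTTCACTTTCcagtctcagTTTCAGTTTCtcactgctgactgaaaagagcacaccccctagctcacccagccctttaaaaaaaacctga
Rsad2, chr12:26456493-26456642, minus strand: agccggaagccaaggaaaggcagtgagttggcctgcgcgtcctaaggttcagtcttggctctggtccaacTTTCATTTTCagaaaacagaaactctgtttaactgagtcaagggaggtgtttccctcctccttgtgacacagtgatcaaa
Isg15, chr4:156200811-156200960, minus strand: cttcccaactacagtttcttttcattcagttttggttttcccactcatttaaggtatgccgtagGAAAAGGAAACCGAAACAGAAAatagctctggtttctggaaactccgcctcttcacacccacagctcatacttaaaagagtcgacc
Cxcl10, chr5:92348990-92349139, minus strand: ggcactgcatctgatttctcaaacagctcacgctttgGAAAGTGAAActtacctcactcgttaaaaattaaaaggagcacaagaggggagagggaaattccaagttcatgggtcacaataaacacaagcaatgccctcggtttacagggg
Igtp, chr11:58199452-58199601, plus strand: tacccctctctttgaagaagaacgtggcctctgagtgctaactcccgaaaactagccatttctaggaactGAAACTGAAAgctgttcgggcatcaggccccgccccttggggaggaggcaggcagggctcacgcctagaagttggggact
B2m, chr2:122147478-122147627, plus strand: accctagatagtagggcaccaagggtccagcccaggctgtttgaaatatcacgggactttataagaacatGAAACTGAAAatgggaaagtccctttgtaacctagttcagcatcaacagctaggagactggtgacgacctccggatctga
In Ifit1 there were 2 matches, the first beginning at -104 relative to the start site, and in Isg15 3 overlapping matches that begin between -78 and -66. Rsad2 had 1 match at -120, Cxcl10 1 at -213, and Igtp 1 at -34 with 1 match of the GAS letters elsewhere in its promoter. B2m also had 1 match, at -139, while its log2 ratio was 0.07. Irf7, at a log2 ratio of 1.87, had 0 matches of these letters in its 300-base promoter.

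The higher genes lay together in the genome. With 142 of the 143 placed in the GENCODE M21 annotation of GRCm38, 62 (43.7%) were within 200 kb of another higher gene, against 5.00% of the tested genes that were not higher and 1.42% of the lower genes next to another lower gene. On chromosome 1 at 173468485-173942672 all 7 tested genes were higher, the Ifi200 family of DNA-binding proteins Ifi203, Ifi204, Ifi206, Ifi208, Ifi211, Ifi213 and Mndal. On chromosome 7 at 104244457-104507849 they were 6 of 6 Trim genes, on chromosome 3 at 142493978-142638008 5 of 5 Gbp genes, on chromosome 5 at 105014150-105293698 4 of 4 Gbp genes, and on chromosome 11 at 82951349-83070678 4 of 4 Slfn genes. Most of these neighbours are copies of each other, so they are not independent measurements. Parp9, Dtx3l and Parp14, on chromosome 16 at 35832874-35972605, and Psme2, Rnf31 and Irf9, on chromosome 14 at 55587441-55610030, were also neighbours.

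Outside the lists, 12 genes with the largest ratios after adding 5 CPM to both groups were Ifi206 (75.6 and 9.70 CPM, log2 ratio 2.96), Ifi208 (2.58), Ifi213 (2.54), the giant ubiquitin ligase Rnf213 (147 and 43.5 CPM, 1.75), Serpina3f (1.71), Ifi211 (1.69), F830016B08Rik (1.53), the serine protease inhibitor Serpina3g (163 and 59.9 CPM, 1.45), the transcription factor Batf2 (22.7 and 8.46 CPM, 1.42), Trim12a (1.39), Mitd1 (1.37) and the stress gene Gadd45g (80.1 and 36.1 CPM, 1.15). The value of Gadd45g came to -0.09 with cells holding any macrophage, endothelial, T or NK marker UMI left out. The Ifi200 genes and the Serpina3 genes are families of near copies with uncertain separate values. In Ifi206 the median was 0.496 per 10000 in members and 0 in comparison cells.

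Genes left out of the score followed it below the cut as well. Over deciles of eligible cells ordered by score, the summed level of the 52 effectors was 14100.5 CPM in the first, 16449 in the fifth, 19677 in the ninth and 22452.5 CPM in the highest decile, and 23623 CPM in members. The 15 GTPases went from 582 CPM in the first to 817, 1392 and 2011 CPM in the same deciles, with 2248 CPM in members. Irf7 went from 44.1 to 186 CPM and Igtp from 27.5 to 132 CPM over the first and the highest decile. Rsad2 was at 6.75 CPM in the first decile, 26.9 CPM in the ninth and 79.2 CPM in the highest. Most of its difference in CPM therefore lay at the end of the range. Cxcl10 showed no order among the first 6 deciles, at 114 to 170 CPM, and was at 360 and 579 CPM in the last 2. MHC class I genes went from 20760 to 24351 CPM, and stellate identity genes from 55282 CPM in the first to 58566 in the third and 59716 in the highest.

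**Figure D3:**
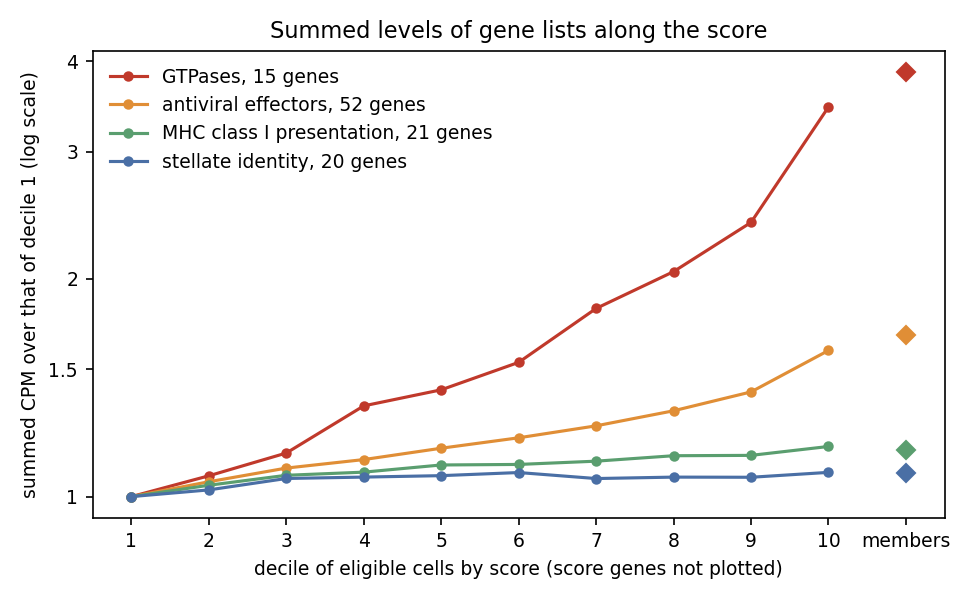
Summed CPM of 4 gene lists in deciles of eligible cells by score, divided by the value of the first decile (log axis), with diamonds for the members. GTPases and antiviral effectors go up over the deciles, to 2011 and 22452.5 CPM in the highest, while the stellate identity line is flat from the third decile on.

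Stellate identity genes differed by less than 1.5-fold between members and comparison cells. None of 20 tested genes passed, the median log2 ratio was 0.00, and the range ran from -0.10 for the transcription factor Hand2 to 0.11 for Colec11, a collectin. Lrat stood at 1519 and 1501 CPM (log2 ratio 0.02), the extracellular glycoprotein Reln at 1166 and 1198 CPM (-0.04), Dcn (decorin) at 26963 and 26413 CPM (0.03) and the hepatocyte growth factor Hgf at 795 and 833 CPM (-0.07). Of 8 tested genes of retinoid storage, 1 was higher, the retinol dehydrogenase Rdh10 (46.3 and 28.0 CPM, 0.73), and 10 member cells held 45.4% of its UMIs. Its log2 ratio came to 0.08 with the top 2% by score as members and 0.52 with the top 10%. Without cells holding any macrophage, endothelial, T or NK marker UMI it came to 0.18. In most other alternatives Rdh10 stayed past 1.5-fold. None of 19 tested immediate-early and heat shock genes, which respond to cell isolation, passed 1.5-fold (median 0.03, with Fos at 0.01 and Hspa1a at 0.12), nor did any of 12 tested p53 response genes (median -0.11, with Cdkn1a at -0.16).

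Of 25 tested collagen and activation genes, 6 were lower and 0 higher (median log2 ratio -0.19): Acta2, smooth muscle actin (20.6 and 149 CPM, log2 ratio -2.85), the collagen cross-linking enzymes Lox (2.92 and 9.43 CPM, -1.69) and Loxl1 (-0.70), Col1a1 (215 and 360 CPM, -0.74), Tagln (485 and 806 CPM, -0.73) and Timp1 (58.2 and 87.7 CPM, -0.59). Col1a2 (538 and 736 CPM, -0.45) and Col3a1 (983 and 1240 CPM, -0.34) were within the limit. The typical cell differed little: the median of Col1a1 was 0.606 per 10000 in members and 0.707 in comparison cells, that of Acta2 was 0 in both, and the highest values were 112 and 184 for Col1a1 and 14.7 and 196 for Acta2. Markers of portal fibroblasts and smooth muscle were also lower, summed to 86.7 CPM in members and 174 CPM in comparison cells, with Mfap4 at 1 and 740 UMIs, Mgp at 46 and 2086 UMIs and Gas6 at 34 and 1881 UMIs. Cells holding any Mfap4, Mgp or Gas6 UMI or 3 or more Acta2 UMIs were then left out. Both groups were chosen again by the same rule, as 445 members and 4454 comparison cells. This gave 86 lower genes in place of 141. Log2 ratios came to -0.12 for Col1a1, -0.16 for Tagln, -0.27 for Loxl1, -0.54 for Lox and 0.38 for Timp1. Acta2, which was itself used to leave cells out, came to -0.56. Under the same exclusion 45 of 52 effectors were higher.

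Several other lower genes were carried by few comparison cells. Hepatocyte genes such as Alb (22 and 7393 UMIs), Apoa1 (6 and 4839 UMIs), Serpina1a, Serpina1b and Ahsg (5 and 2030 UMIs) were lower in members (4 of 6 tested on the hepatocyte list), and 1 comparison cell held 6823 of the Alb UMIs, 92.3% of those in the comparison cells. Igfbp1 and Rbp4 had 0 UMIs in members, which at a floor of 3 UMIs over the group is at least 39.3-fold and 36.0-fold lower, but 1215 of the 1227 Igfbp1 UMIs and 1089 of the 1124 Rbp4 UMIs also lay in 1 cell each. Leaving out cells with any Alb, Apoa1, Ttr or Spp1 UMI gave 131 lower genes and 45 of 52 effectors higher. The proliferation gene Top2a (11 and 729 UMIs, log2 ratio -2.67) was 1 of 3 lower genes among 5 tested cycling genes, with 87.5% of the comparison UMIs in 10 cells. Ankrd1 (2.78 and 10.2 CPM, -1.88), Fam180a (8.33 and 23.6 CPM, -1.50) and the adhesion molecule Alcam (37.4 and 80.0 CPM, -1.10) complete the genes outside the lists with the smallest ratios. Gas6 (-2.41) and Cyp1b1 (-0.83) were among the lower genes that the study follows. Cyp1b1 came to -0.338 with cells holding any Mfap4, Mgp or Gas6 UMI or 3 or more Acta2 UMIs left out. Against all other eligible cells it came to -0.577, and both values are within 1.5-fold. The desaturases Scd1 and Scd2 were at -0.15 and -0.27.

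The members were not 1 cluster. With the score genes left out, the 9912 cells fell into 15 Leiden clusters, and 14 of them held members, as 1.64% to 13.4% of the cells in clusters of at least 20 cells. Cluster 8 (396 cells, led by Cxcl10, Ccl2, Cxcl2 and Cxcl9) had the highest share, 53 members or 13.4% (10.2 to 17.1%). Cluster 7 (1378 cells, led by Epor, Disp2 and Id1) was 9.51% members (8.01 to 11.2%) and held 131 of the 495. Cluster 10 (402 cells, led by Mgp, Gas6 and Mfap4) had 8 members, 1.99% (0.863 to 3.88%). A cluster of 6 cells led by Alb held 0 members and 6 comparison cells. Clusters were built from the same cells and are given by number, without a type name.

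Within single clusters the interferon genes still differed. In the 7 clusters with at least 30 members and 50 comparison cells, 36 to 45 of the 52 effectors and 13 to 15 of the 15 GTPases were higher, with median log2 ratios of 0.89 to 1.54 and 1.31 to 1.59. Over all tested genes 3.84% to 8.36% were higher in these smaller groups. Rsad2 stood at 312 CPM in members and 22.6 CPM in comparison cells of cluster 8, at 95.1 and 16.8 CPM in cluster 7 and at 99.6 and 10.6 CPM in the other clusters together. Isg15 stood at 5409 and 1684 CPM, 2595 and 862 CPM, and 3310 and 1278 CPM in the same order.

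The chemokines differed among themselves within clusters. Cxcl10 was higher in members inside cluster 8 (4241 and 1973 CPM), cluster 7 (116 and 67.0 CPM) and the other clusters (373 and 93.9 CPM), although cluster 8 gave 66.4% of the members' Cxcl10 UMIs. Ccl2 was lower in members inside cluster 8, at 4421 and 7590 CPM, and stood at 580 and 395 CPM in cluster 7 and 440 and 345 CPM elsewhere. Cxcl9 stood at 249 and 250 CPM in cluster 8, which held 89.7% of the members' Cxcl9 UMIs, and at 4.89 and 15.1 CPM in the other clusters. In cluster 7 it had 3 UMIs in members and 8 in comparison cells. Cxcl5 stood at 173 and 183 CPM in cluster 8, with 93.5% of the members' UMIs there. Cluster 8 held 53 of the 495 members and 111 of the 4956 comparison cells. Cd274 also had 39.9% of its member UMIs in cluster 8, at 77.4 and 20.3 CPM.

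**Figure D4:**
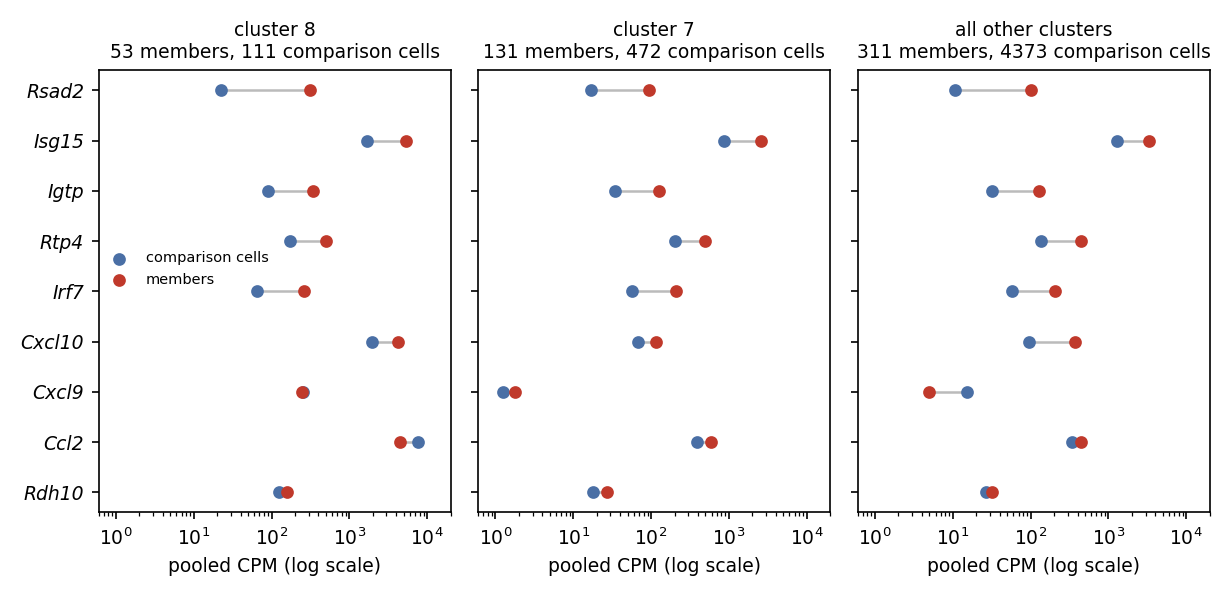
Pooled CPM (log axis) of 9 genes in members (red) and comparison cells (blue) within cluster 8, cluster 7 and all other clusters of the VitA+Col1a1+ DEN+WAD stellate cells. Rsad2, Isg15, Igtp, Rtp4, Irf7 and Cxcl10 are to the right in members in all 3 panels, while Cxcl9 coincides at 249 and 250 CPM in cluster 8 and Ccl2 is lower in members there.

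The 10 members with a score above 60 stood apart for some genes. Their Rsad2 was 2355 CPM, against 207 CPM in the 62 members at 30 to 60, and they held 37.2% of the members' Rsad2 UMIs. Over these 10, the 62 and the 423 members at or below 30, Cxcl10 stood at 8009, 808 and 615 CPM and Isg15 at 10772, 4987 and 2999 CPM. Rtp4 differed less, at 624, 538 and 447 CPM, and Dcn was at 28617, 27083 and 26909 CPM. Ccl2 was at 1315, 952 and 957 CPM, and Cxcl5 had 0 UMIs in the 10 cells. Without these 10 cells the members' Rsad2 was 79.8 CPM and their Cxcl10 638 CPM, still above the comparison cells' 11.5 and 136 CPM.

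The same rule was then run inside each of the other libraries, whose cells had no part in choosing the members. It gave 86 cells in VitA-Col1a1+ DEN+WAD, against 11 in VitA+Col1a1+ chow, 23 in VitA-Col1a1+ chow and 164 in the library labelled VitA-Col1a1-. The depth of the 5 libraries ran from medians of 9105.5 to 24077 UMIs per cell. The label VitA-Col1a1- goes against the Col1a1 RNA of that library's comparison cells, at 2074 CPM. The VitA+Col1a1+ comparison cells described above were at 360 CPM. Eligible cells, which were chosen for Lrat, made up 33.2% of the 9870 cells of the library labelled VitA-Col1a1-. Of the 45 effectors higher in the members, 43 of 44 tested were higher in VitA-Col1a1+ DEN+WAD, and the counts were 36 of 44 in VitA+Col1a1+ chow, 39 of 41 in VitA-Col1a1+ chow and 41 of 44 in the library labelled VitA-Col1a1-. Over all genes tested in the same libraries 5.51%, 12.7%, 10.4% and 3.51% were higher, the largest in the smallest group of cells. Of the GTPases, 14 of 14, 13 of 14, 13 of 13 and 14 of 14 were higher, Gbp8 being the exception. Rsad2 stood at 122 and 2.94 CPM, 94.4 and 10.1 CPM, 22.1 and 1.45 CPM, and 218 and 4.82 CPM. Irf7 stood at 232 and 39.0 CPM, 147 and 30.04 CPM, 179 and 17.6 CPM, and 220 and 53.6 CPM.

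Cxcl10 gave different values in DEN+WAD and chow. It was higher in the top 5% of the DEN+WAD libraries, at 1122 and 57.6 CPM in VitA-Col1a1+ cells and 1420 and 75.4 CPM in the library labelled VitA-Col1a1-. In chow it stood at 101 and 107 CPM (29 and 286 UMIs, log2 ratio -0.08) in VitA+Col1a1+ cells and 14.8 and 22.3 CPM (8 and 123 UMIs, -0.59) in VitA-Col1a1+ cells. The intervals of the chow ratios, 0.62 to 1.38 and 0.28 to 1.35, included 1, and those of the DEN+WAD libraries began at 5.58 or above. These intervals do not cover the spread between cells, and 10 of the 495 members held 46.3% of their Cxcl10 UMIs. The 2 chow groups held 11 and 23 cells, and 1 library a regimen and gate allows no test of this difference.

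Stellate identity genes were not level in every library. None of 20 passed in VitA+Col1a1+ chow (median log2 ratio 0.02), as in the members, but 7 were higher in VitA-Col1a1+ DEN+WAD (0.45), with 10 in VitA-Col1a1+ chow (0.51) and 5, with 1 lower, in the library labelled VitA-Col1a1- (0.39). Reln stood at 234 and 64.1 CPM in VitA-Col1a1+ chow. Of the MHC class I genes tested, 15 of 21 were higher in VitA-Col1a1+ DEN+WAD and 15 of 19 in VitA-Col1a1+ chow. The counts were 2 of 20 in VitA+Col1a1+ chow, 10 of 21 in the library labelled VitA-Col1a1- and 6 of 21 in the members. Differences between these counts were not tested. In the VitA- gates the eligible cells with low scores therefore also held less stellate RNA, which was not so in the VitA+ gate, and its part in the ratios was not tested.

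**Figure D5:**
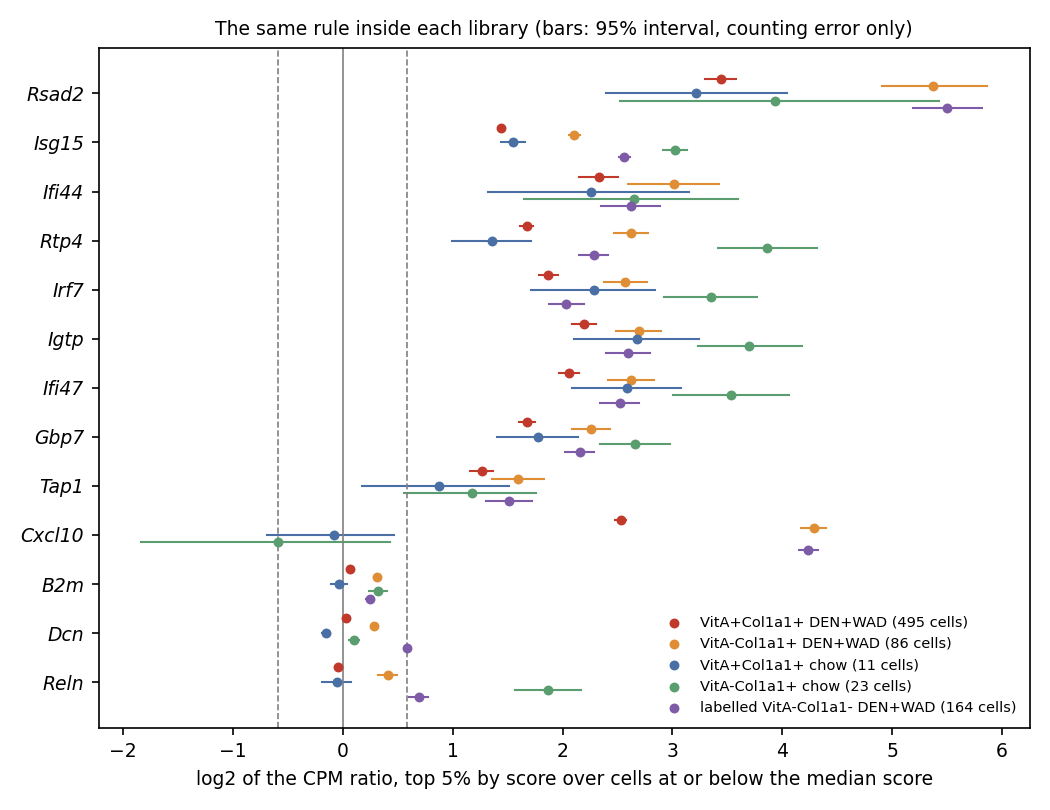
Log2 ratio of pooled CPM, top 5% by score over cells at or below the median score, for 13 genes inside each of the 5 libraries, with 95% intervals of counting error and dashed 1.5-fold limits. Rsad2 to Tap1 are to the right of 0 in all 5 libraries, while Cxcl10 is at 2.53 or above in the 3 DEN+WAD libraries and at -0.08 and -0.59 in chow.

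The share of eligible cells with a score at or above 16.3 was compared after thinning each cell to 5000 UMIs. Among the 9912 cells described here it was 5.37% (4.93 to 5.83%), which the rule fixed near 5% because the cut came from them. In VitA-Col1a1+ cells of the same regimen it was 3.81% (2.96 to 4.82%). It was 3.46% (8 of 231 cells, 1.51 to 6.71%) in VitA+Col1a1+ chow, 1.73% (8 of 462 cells, 0.75 to 3.38%) in VitA-Col1a1+ chow and 3.26% (2.68 to 3.93%) in the library labelled VitA-Col1a1-. At full depth the shares were 4.99%, 2.54%, 3.03%, 1.73% and 3.20%. These intervals cover the counting of cells within 1 library and do not compare the regimens. Summed over all eligible VitA+Col1a1+ cells, the score genes were at 523 CPM in DEN+WAD and 427 CPM in chow, and the 52 effectors at 17221 and 12823 CPM. Both gates were sorted under both regimens, but with 1 library each the regimen and the animals of a library cannot be told apart.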

How the data were processed

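Liver cells of Rosa26mTmG;Col1a1-Cre mice were profiled by droplet single-cell RNA-seq (10x Genomics), with 1 library for each of 5 groups. Per the file headers, the authors made the matrices with Cell Ranger 3.1.0, or 6.1.2 for the library labelled VitA-Col1a1-, and the processing notes name mm10. The labels name more than 1 version of the 10x kit. The authors deposited unnormalized counts of UMIs for every gene in each barcode, and samples were grouped by their labels. No sample column was left unused.

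Cells were kept at 5000 or more UMIs, 1 or more Lrat UMI and 0 Pecam1 and Ptprc UMIs, and scored on 6 genes. The members, the lists and the alternatives were chosen with earlier results of these data known, and the filters on hepatocyte, portal fibroblast and Acta2 transcripts were added after seeing these data. Counts were pooled over cells and scaled to CPM, and genes at 5 CPM or more over eligible cells were compared by ratio, with a limit of 1.5-fold and exact binomial 95% intervals for counting error only. UMIs of 1 cell or library are not replicates, so no test was run, and no doublet caller was used. A count of 0 was read as up to 3 UMIs. Named genes were the score genes, list members with the largest and smallest ratios or textbook roles, and outside the lists the 12 highest and 8 lowest ratios after adding 5 CPM. The leading genes of clusters were named after their values were seen. Shares were compared after thinning cells to 5000 UMIs. Clusters came from scanpy 1.11.5 (Leiden, igraph 0.11.9) without the score genes. Positions were from GENCODE M21 and promoters from RefSeq. The ratio script was tested on simulated data. Python 3.11.15, numpy 2.4.6, scipy 1.17.1 and pandas 2.3.3 were used. The alternatives were other score definitions, cell filters, comparison groups and scalings. Under each other score or cell filter, members and comparison cells were chosen again by the same rule. The values of 1 gene are not reported here.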

Additional observations from a re-analysis of the deposited data

Results flagged for a closer look

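For some genes the ratio in the members and the ratio under the same rule in another library pointed in opposite directions, each past 1.5-fold. Of the 143 genes higher in members, 3 were lower in VitA-Col1a1+ DEN+WAD and 4 in each chow library. In the library labelled VitA-Col1a1- the count was 0. Rdh10 was among them, at -0.74 in VitA-Col1a1+ chow on 3 and 51 UMIs, and 4 other genes follow. In every case the difference was not tested, since each group was 1 library. Timp1, a metalloproteinase inhibitor, had a log2 ratio of -0.59 in the members and 1.22 in VitA-Col1a1+ DEN+WAD, where it stood at 177 CPM in 86 cells with high scores and 76.0 CPM in the comparison cells. The members' value came to 0.38, the same direction as in that library, once cells with any Mfap4, Mgp or Gas6 UMI or 3 or more Acta2 UMIs were left out. Ccl5 had a log2 ratio of 0.69 in the members and -2.53 in VitA-Col1a1+ DEN+WAD, on 5 and 328 UMIs. Gadd45g was at 1.15 in the members and -1.17 in VitA-Col1a1+ DEN+WAD, with 43.2 and 97.2 CPM there, and the members' value came to -0.09 without cells holding any macrophage, endothelial, T or NK marker UMI. Alcam was at -1.10 in the members and 1.38 in VitA-Col1a1+ chow, with 192 CPM in 23 cells and 73.7 CPM in the comparison cells.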

How the results depend on the processing

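No paired analysis was possible because each group was 1 library and no test was run. Antiviral effectors past 1.5-fold stayed between 40 and 45 of 52 in every alternative that kept the 5 CPM minimum, and 53 of 64 without it. Their median log2 ratio of 1.265 moved to 1.474 with the top 2% as members, 1.113 with the score counted after thinning and 0.9741 against all other cells. For the GTPases 1.681 became 1.97, 1.449 and 1.254 in the same order and 1.516 with the top 10%. It became 1.889 when cells with any macrophage, endothelial, T or NK marker UMI were left out. That marker filter left 2911 eligible cells, from which 145 members were chosen anew. These included 28.9% of the original 495. For MHC class I 0.3591 became 0.4265 with the top 2% and 0.2423 against all other cells. Under that marker filter the NF-kB median went from 0.1882 to -0.04477, the chemokine median from 0.2201 to 0.08066 and the depth ratio from 0.9902 to 1.018, against 0.9557 with the top 2%. Leaving out cells with portal fibroblast transcripts or 3 or more Acta2 UMIs took the collagen median from -0.1926 to -0.03413, and centring on the median ratio took stellate identity to 0.04212. The genes past the fold went from 284 to 626 with the top 2% (196 higher, 430 lower), 2466 with no CPM minimum and 696 under the marker filter, where fewer cells or counts stand behind each ratio. Centring on the median ratio gave 154 higher and 113 lower. At a resolution of 0.5, 5 clusters held members. The share in VitA-Col1a1+ DEN+WAD was 2.54% at full depth. Directions turned for Cxcl5 (-0.643), Gadd45g (-0.093) and Serpina1a (2.319) under the marker filter, for Ccl11 (0.186) and Timp1 (0.381) under the portal and Acta2 filter, for Serpina1a (0.207) and Serpina1b (1.184) without cells holding hepatocyte or Spp1 transcripts, and for Cxcl9 (-0.128) against all other cells. The causes of other shifts were not tested. Depth limits low genes such as Ccl5 and H2-T24, and 11 and 23 cells limit the chow libraries.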
